A study of Mus musculus with 3 samples.

Results

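The fibroblast-marker cells of mouse long bone were 245 of 15628 cells from 3 droplet libraries. They were chosen by the UMIs (unique molecular identifiers, the counted RNA molecules) of the cells themselves: at least 3 of the 6 genes Dpt, Pi16, Clec3b, Cd34, Igfbp6 and S100a4 had to be detected. A cell was left out where Pecam1 and Cdh5 together, Laptm5 and Tyrobp together, Acan, or Lepr and Adipoq together exceeded 1 UMI, or where Rgs5 reached 10. Cells had at least 1000 detected genes in the Pdgfra-GFP library and 1500 in the metaphyseal libraries, at most 15% mitochondrial and at most 30% ribosomal protein UMIs. All 3 libraries came from untreated C57BL/6 mice at postnatal week 3. The metaphyseal libraries, replicates 1 and 2, held cells of the dissected metaphysis of wild-type males after lineage-marked, CD45+ and CD117+ blood and progenitor cells had been depleted. The Pdgfra-GFP library held GFP+ cells sorted from the dissected metaphysis and epiphysis region of femur and tibia of heterozygous Pdgfra-H2B-GFP males, in which a nuclear green fluorescent protein is made under the Pdgfra gene, after the bones had been cleaned of attached tissue. Position within the dissected region was not measured for single cells, and the sort keeps cells with reporter protein whether or not Pdgfra RNA is seen. The libraries held 25243314, 22082735 and 91747759 UMIs. After the filters, 2382 and 2004 metaphyseal cells and 11242 Pdgfra-GFP cells were left.

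Fibroblasts of connective tissue make and maintain collagen-rich matrix. In many organs a population that carries Dpt, Pi16, Cd34 and Ly6a lies in the outer sheath of vessels and in fascia, and is known for elastic fibre genes, complement genes and secreted binding proteins. In bone, related cells lie in the fibrous periosteum, in tendon and ligament insertions, in the joint lining and around nerves. Since the position of single cells was not measured, the name "fibroblasts of the bone surface" could not be checked against location. The cells held separate groups with tendon, joint lining and perineurial markers beside the adventitial ones, so they are called here fibroblast-marker cells, after their rule.

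The 6 genes of the rule were detected unequally among the 245 cells. Igfbp6, which encodes a secreted protein that binds insulin-like growth factors, was found in 97.1% (94.2 to 98.8%) of them (exact binomial interval, counting error only). S100a4, a calcium-binding protein common in motile fibroblasts, was found in 91.8% (87.7 to 94.9%). Cd34, a sialomucin of progenitor, endothelial and fibroblast surfaces, was found in 69.0% (62.8 to 74.7%). Dpt, the matrix protein dermatopontin, and Clec3b, the plasminogen-binding lectin tetranectin, were each found in 57.6% (51.1 to 63.8%), and Pi16, a secreted peptidase inhibitor, in 15.5% (11.2 to 20.7%). Exactly 3 markers were found in 122 cells (49.8%), 4 in 44 (18.0%), 5 in 64 (26.1%) and all 6 in 15 (6.12%). The most frequent combination was every marker but Pi16, in 59 cells, and the next was Cd34, Igfbp6 and S100a4, in 52. These shares describe the choice of cells and support nothing further.

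**Figure D1:**
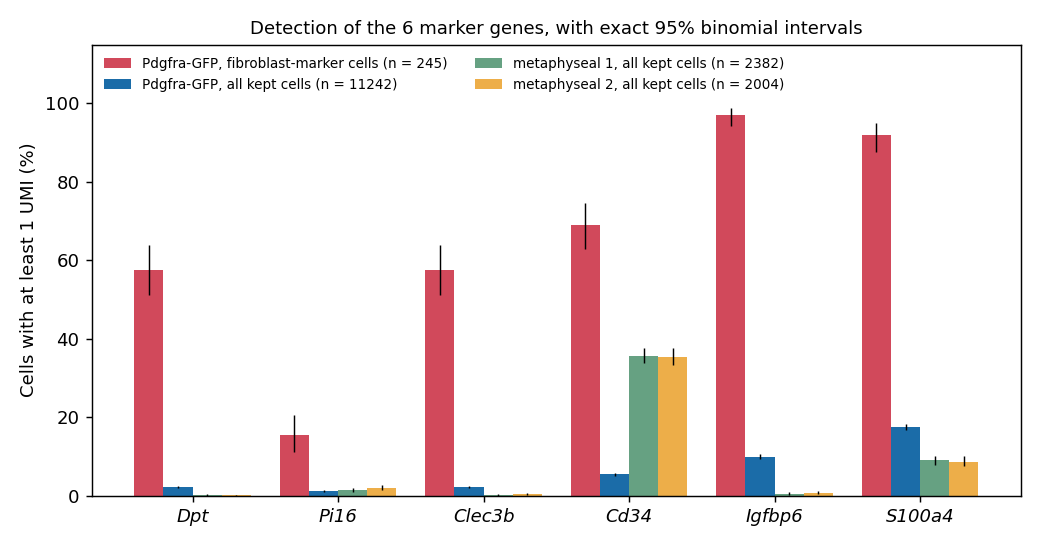
Share of cells with at least 1 UMI (vertical axis, %) of each marker gene (horizontal axis) in the 245 fibroblast-marker cells and in all kept cells of each library. Bars are shares and lines are exact 95% binomial intervals. Igfbp6 reached 97.1% of the chosen cells and under 1% of metaphyseal cells, whereas Cd34 was found in 35.7% and 35.5% of metaphyseal cells.

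Across each whole library, the same genes were spread differently. The chosen cells held 1.88% of all UMIs of the kept Pdgfra-GFP cells, but 74.9% of the UMIs of Clec3b, 69.1% of Dpt, 66.5% of Pi16, 40.1% of Igfbp6, 27.2% of Cd34 and 26.2% of S100a4. Of cells that should lack fibroblast genes, those that failed the haematopoietic clause alone (284 cells, median 6976 UMIs against 5034 in the chosen cells) had Dpt in 3.17%, Clec3b in 1.76% and Igfbp6 in 5.63%, but Pi16 in 19.4% and S100a4 in 37.7%. Cells that failed the endothelial clause alone (276 cells) had Cd34 in 68.1% and no Dpt or Clec3b, which allows a share of cells with a UMI of up to 1.33% for each and sets no limit on expression too low to be seen. Cells that failed the Acan clause alone (1783 cells, median 8106 UMIs) had S100a4 in 29.9%, Igfbp6 in 22.2% and Cd34 in 6.23%. In them Clec3b was found in 2.19%, Dpt in 1.74% and Pi16 in 0.337%. Igfbp6, Pi16, S100a4 and Cd34 were thus detected in other cell classes of this library too.

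On the mouse genome build GRCm38, the protein-coding marker genes lie apart from each other in the Gencode M21 annotation. Dpt spans chr1:164796644-164824266 on the plus strand, Cd34 chr1:194938819-194961279 (plus), S100a4 chr3:90603771-90606045 (plus), Clec3b chr9:123150946-123157432 (plus), Igfbp6 chr15:102144362-102149511 (plus) and Pi16 chr17:29317680-29330593 (plus).

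All 245 cells lay in the Pdgfra-GFP library, where they were 2.18% of 11242 cells (1.92 to 2.47%). Of 2382 and 2004 metaphyseal cells, 0 met the rule, which allows a share of up to 0.155% and 0.184% by the exact binomial interval. The metaphyseal libraries held 5 cells each with at least 3 of the markers, and all of these failed the endothelial clause. Dpt had 2 and 1 UMIs over all metaphyseal cells, Clec3b 2 and 6, Igfbp6 13 and 21, and Mfap5, a microfibril glycoprotein outside the rule, 4 and 13. In the Pdgfra-GFP library the same 4 genes had 754, 1983, 12255 and 2478. The libraries differ in mouse line, dissection and gate at once, and what each adds to this difference cannot be told apart. They also differ in gene minimum. With at least 1000 genes in every library, 0 of 2743, 0 of 2313 and 245 of 11242 cells met the rule. With at least 1500 genes in every library, 0 of 2382, 0 of 2004 and 192 of 9015 did. With 1 Pdgfra-GFP library there is no replicate of the chosen cells, and no test of any difference below was made.

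A further 156 Pdgfra-GFP cells had at least 3 markers but failed an exclusion. Acan, the cartilage proteoglycan, removed 126 of them, Lepr and Adipoq 32, the haematopoietic pair 9 and the endothelial pair 4, and some failed more than 1 clause. Just outside the marker threshold stood 191 cells with exactly 2 markers and no failed exclusion. In them Igfbp6 was at 1195 CPM (UMIs of a gene per 1000000 UMIs of the summed cells) and S100a4 at 994.0, in 80.1% and 80.6% of cells. Dpt was at 27.4 CPM and Clec3b at 20.2. In the 122 cells with exactly 3 markers these levels were 2982, 2078, 81.7 and 301. The chosen cells had a median of 5034 UMIs (1891 to 18330) and 1963 genes, and the other 10997 Pdgfra-GFP cells 5342 UMIs and 2077 genes, so the groups were of similar depth. Scrublet marked 4 of the 245 cells (1.63%) and 155 of 11242 (1.38%) as doublets. They were kept in the main values. The Pdgfra-GFP library shared 9 and 10 cell barcodes with the metaphyseal libraries, which shared 0 with each other.

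Genes outside the rule moved with the number of markers in a cell. Among Pdgfra-GFP cells that passed the exclusions, Mfap5 was at 2.7 CPM in the 2414 cells with none of the markers, 7.05 with 1, 113 with 2, 252 with 3, 1201 with 4, 2146 with 5 and 4479 in the 15 cells with 6. Ly6a, which encodes the surface antigen Sca-1, went from 4.70 to 594 at 3 markers and 4316 at 6. Tnxb, a matrix glycoprotein of loose connective tissue, went from 0.750 to 143 and 692. Both stood higher at each step up to 5 markers. Col3a1, the fibrillar collagen of pliable tissue, was at 579, 4481 and 9163 CPM. Tnmd, a membrane protein of tendon cells, and Prg4, the joint lubricant lubricin, followed another course. Tnmd peaked at 3 markers (1470 CPM) and was at 86.5 with 6, and Prg4 was at 111, 4522 and 1763. Tnmd and Prg4 were thus highest at the threshold of the rule, and Mfap5 in the cells with most markers. Bglap, osteocalcin of mature osteoblasts, was at 52408 CPM with no marker and 506 with 3. Its 9233 CPM at 4 markers came largely from 1 cell described below.

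**Figure D2:**
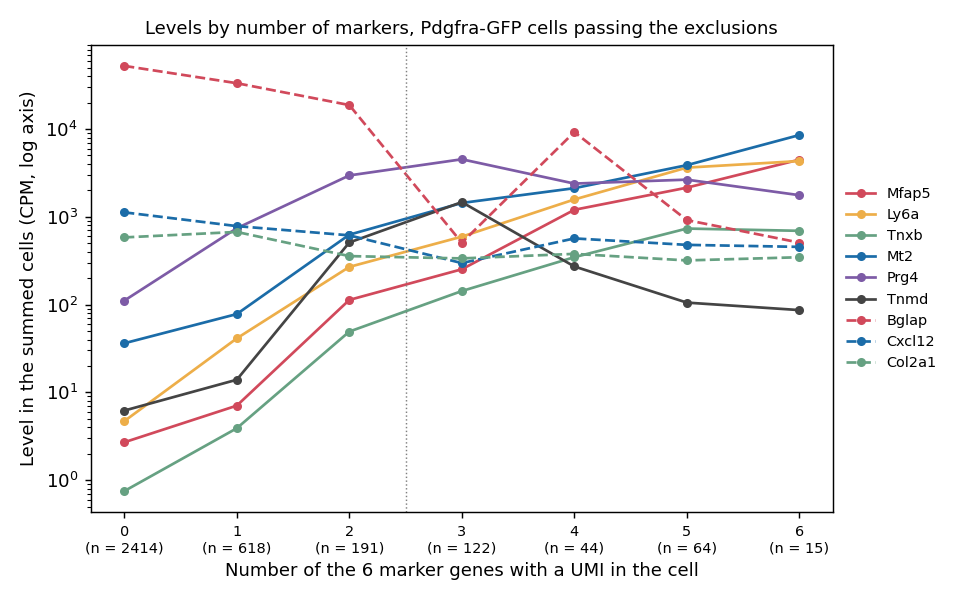
Level of 9 genes (vertical axis, CPM of summed cells, log scale) by the number of marker genes with a UMI in the cell (horizontal axis), in Pdgfra-GFP cells that passed the exclusions. The dotted line is the threshold of the rule. Mfap5 went from 2.7 CPM in cells with none to 4479 in cells with all 6, while Tnmd peaked at 3 markers.

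Levels were then compared between the 245 cells and the other 10997 kept cells of the same library. A gene is written here as higher or lower where its level differed at least 2-fold and the exact 95% Poisson intervals of the summed UMIs did not overlap, among the 6113 genes with at least 20 CPM on either side. By that measure 633 genes were higher (10.4%) and 609 lower (9.96%). The contrast is the one the cells were chosen on, so these shares are given as a description and nothing is read from them. The median log2 ratio over all 6113 genes was 0.09. Of the 633 genes, 584 were seen in at least 10% of the chosen cells, and 49 fell under a ratio of 2 without the cell that held the largest share of their UMIs.

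The 20 largest ratios outside the rule, among genes of at least 50 CPM, fell into genes carried by many cells and genes carried by very few. The condition on both metaphyseal libraries in the rule for named genes could not be applied, since these held none of the chosen cells. Mfap5 was at 1230 CPM (1173 to 1289) against 9.92 (9.21 to 10.7) in the other cells, and in 58.8% against 2.47% of cells. Tnxb was at 381 against 5.21 CPM, in 50.6% against 1.53% of cells. Col14a1, a collagen that sits on fibril surfaces, was at 177 against 2.63 CPM, in 38.4% against 1.09% of cells. Tppp3, a tubulin-binding protein known from tendon sheath cells, was at 1371 against 29.2 CPM, in 63.7% against 5.30% of cells. Sema3c, a secreted guidance cue, was at 167 against 4.83 CPM, in 44.5% against 2.35% of cells. Ly6a was at 1867 against 65.9 CPM, in 65.3% against 7.62% of cells. Ccn3, a matricellular protein, was at 121 against 2.72 CPM, in 27.3% against 0.882% of cells, and Cadm3, an adhesion molecule, at 63.5 against 0.704 CPM, in 22.0% against 0.391% of cells. Scg3, a granin of secretory granules, was seen in 14.7% of the chosen cells and 0.100% of the others, at 86.0 against 0.257 CPM. Tmod2 (56.4 against 1.58 CPM), Ociad2 (56.4 against 1.84 CPM), Sbspon (122.7 against 3.99 CPM) and Angptl7 (455 against 13.1 CPM) were also among the 20, in 21.6%, 20.4%, 11% and 11.4% of the chosen cells. So was Mt2, which is described below with Mt1. Angptl7 turned to a log2 ratio of -0.09 in cells with at least 4 markers.

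The other large ratios rested on few cells. Saa3, an acute phase protein, was at 322 against 1.66 CPM, but 1 cell held 99.8% of its UMIs and without it the ratio was 0.427. Cxcl5, a neutrophil chemokine, was at 429 against 1.70 CPM with 99.5% in 1 cell and a ratio of 1.25 without it. Il1rl1, the interleukin-33 receptor, had 94.7% of its UMIs in 1 cell and a ratio of 12.7 without it, and Cxcl1, another neutrophil chemokine, 82.5% and a ratio of 10.6. Ccl7, a monocyte chemokine, was at 315 against 8.19 CPM in 7.76% of cells with 45.0% in 1 cell, and its ratio without that cell was 21.4. Ccl11, the eosinophil chemokine eotaxin, was at 52.2 against 0.257 CPM in 17 of 245 cells, with 21.6% of its UMIs in 1 cell. Its ratio without that cell was 160.1.

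Chosen after their values were seen, the genes with the largest ratios among those in at least 50% of the chosen cells gave a view less bound to single cells. After Mfap5, Tnxb, Tppp3, Mt2 and Ly6a came Fbln2, a fibulin of elastic fibres (229 against 8.66 CPM, in 51.0% against 2.39% of cells), Thy1, the surface glycoprotein CD90 (352 against 15.6 CPM, in 51.8% against 3.63% of cells), Fndc1 (232 against 12.8 CPM), Ahnak2 (161 against 9.36 CPM), Ltbp4, which holds latent TGF-beta in the matrix (245 against 14.3 CPM, in 58.0% against 5.31% of cells), Cdh13, a cadherin anchored by lipid (253 against 14.8 CPM) and Ly6c1 (957 against 56.3 CPM). Gsn, the actin-severing protein gelsolin, was both abundant and widespread at 6315 against 479 CPM, in 98.0% against 69.2% of cells. Itih5, which binds hyaluronan, was at 495 against 38.6 CPM.

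The lists used here were written with earlier results of these data known and are described by counts beside the 10.4% and 9.96% of all genes. All 12 adventitial fibroblast genes were higher, with a median log2 ratio of 4.82. Beside those above, Pcolce2, an enhancer of procollagen processing, was at 501 against 110.3 CPM, Ackr3, a scavenging receptor of Cxcl12, at 279.9 against 21.6 CPM, Cd248, the stromal surface protein endosialin, at 233 against 8.32 CPM, and Dpp4, a surface peptidase, at 32.4 against 0.636 CPM in 11.8% of the chosen cells. Ly6a was as abundant in cells that failed the endothelial clause alone (1843 CPM, 87.0% of cells), where Mfap5 was at 6.26 CPM. Of the 6 parenchymal fibroblast genes compared, 3 were higher, among them Col15a1, a basement membrane collagen (188 against 39.7 CPM), and Gpx3, a secreted glutathione peroxidase, was lower (245 against 1848 CPM).

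None of the 12 fibrillar and associated collagens was lower, and 6 were higher (median log2 ratio 1.03). Col3a1 was at 7395 against 684 CPM and was found in all 245 cells, and Col6a2, Col6a3, Col5a3, Col14a1 and Col16a1 were the others (Col16a1 turned to a log2 ratio of -0.28 in cells with at least 4 markers). Col1a1 and Col1a2, the chains of type I collagen of bone and tendon, were at 15534 against 29414 CPM and 12275 against 22333 CPM, under a 2-fold difference. Per cell, Col1a1 ranged from 146 to 140686 CPM around a median of 6024. Of the 16 elastic fibre and microfibril genes, 7 were higher and 2 lower. Fbn1, the microfibril backbone fibrillin-1, was at 613 against 173 CPM, Eln, elastin itself, at 129.7 against 10.6 CPM in 20.4% of cells, Emilin2 at 70.5 against 3.91 CPM and Mfap4 at 93.1 against 8.46 CPM, while Fbln5 (118 against 313 CPM) and the cross-linking enzyme Lox (82.5 against 275 CPM) were lower. Among the 3223 other cells that passed every exclusion, with under 3 markers, Fbln5 was at 121 CPM, close to the chosen cells, and Lox at 401 CPM. Cells that failed the Lepr and Adipoq clause alone held Fbln5 at 769 CPM. Among 9 small leucine-rich proteoglycans, which coat collagen fibrils, Dcn (10426 against 3308 CPM), Aspn (841 against 72.9 CPM), Prelp (507 against 217 CPM) and Podn (28.9 against 11 CPM) were higher and Omd, osteomodulin of osteoblasts, lower (36.0 against 262 CPM). Bgn and Lum, biglycan and lumican, were at 3283 against 3014 CPM and 1304 against 959 CPM.

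Genes of tendon, joint lining and periosteum were represented too. Of 9 tenocyte genes compared, 7 were higher (median log2 ratio 2.33): Thbs4, a thrombospondin of tendon matrix, was at 1463 against 131 CPM, in 46.9% against 11.5% of cells, Tnmd at 782 against 93.1 CPM, in 25.7% against 6.50% of cells, Kera, the fibril proteoglycan keratocan, at 252 against 10.2 CPM, in 12.2% against 1.17% of cells, and Scx, the tendon transcription factor scleraxis, at 59.2 against 11.8 CPM, in 13.1% against 5.13% of cells. Tnc, the matrix glycoprotein tenascin-C, was lower (157 against 635 CPM). Most Tnmd was nevertheless elsewhere, since the chosen cells held 13.9% of the library's Tnmd UMIs, 32.2% of Kera and 8.79% of Scx. All 6 synovial lining genes compared were higher, led by Prg4 at 3435 against 517 CPM, in 58.8% against 17.1% of cells, with 11.3% of the library's Prg4 UMIs in the chosen cells. Cells that failed the Acan clause alone held Prg4 at 1343 CPM. Of 4 endoneurial genes compared, Matn2, a matrilin (277 against 36.3 CPM), and Plxdc1 (42.3 against 3.65 CPM) were higher, and of the perineurial genes only Slc2a1 reached the level for comparison and was higher (96.6 against 19.7 CPM). In cells with at least 4 markers Scx turned to a log2 ratio of -0.24, Slc2a1 to -0.82 and Cilp2 to -1.45. Of 6 periosteal genes compared, Aspn, Ctsk (the collagen-degrading protease cathepsin K, 625 against 227 CPM, in 78.8% against 59.0% of cells) and Postn (periostin, 329.9 against 120.4 CPM) were higher and 3 were within 2-fold. Postn was at 222 CPM in the 3223 other cells that passed every exclusion, under a 2-fold difference from the chosen cells. The hedgehog target Gli1 was at 4.23 CPM and the Wnt target Axin2 at 6.35, both below the level needed for comparison.

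Outside S100a4, 7 of 10 genes of the calcium-binding S100 proteins and annexins were higher and 1 lower, and S100a11 and S100a13 were within 2-fold. S100a6 was at 7290 against 862 CPM, in all 245 chosen cells against 64.1% of the others, S100a10 at 4090 against 727 CPM, Anxa1, which dampens inflammation, at 1159 against 263 CPM, Anxa2 at 1820 against 532 CPM and Anxa5 at 1663 against 593 CPM. S100b, a marker of chondrocytes and glia, was the lower member (49.4 against 155 CPM).

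The metallothioneins, small proteins that bind zinc and copper, were among the widest differences. Mt2 was at 2707 against 74.1 CPM, in 62.0% against 11% of cells, and Mt1 at 2278 against 146 CPM, in 80.0% against 29.9% of cells. Per cell, Mt2 ran from 0 through a median of 296 to 39478 CPM, and 1 cell held 11.5% of its UMIs (ratio without it 32.6). Both genes were detected in 140 of the chosen cells (57.1%), Mt1 alone in 56, Mt2 alone in 12 and neither in 37. In the other kept cells both were detected in 757 of 10997 (6.88%). Detection depends on depth, which was a median of 5034 UMIs in the chosen and 5342 in the other cells. Mt2 and Mt1 lie side by side on chromosome 8 (Gencode M21, Mt2 at chr8:94172664-94173568 and Mt1 at chr8:94179082-94180327, both on the plus strand). Since the pair was detected together, the 250 bases before each RefSeq start (GRCm38.p6, plus strand, chr8:94172368-94172617 for Mt2 and chr8:94178839-94179088 for Mt1) are shown, with matches to TGCNCNC on either strand in capitals. These letters are looser than the core of the metal response element, TGCRCNC, in which R is A or G.
Mt2: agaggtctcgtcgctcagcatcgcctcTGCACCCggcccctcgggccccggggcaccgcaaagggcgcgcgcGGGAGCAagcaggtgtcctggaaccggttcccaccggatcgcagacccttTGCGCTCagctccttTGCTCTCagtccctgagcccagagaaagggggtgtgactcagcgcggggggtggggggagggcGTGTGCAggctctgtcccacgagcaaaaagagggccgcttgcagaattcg
Mt1: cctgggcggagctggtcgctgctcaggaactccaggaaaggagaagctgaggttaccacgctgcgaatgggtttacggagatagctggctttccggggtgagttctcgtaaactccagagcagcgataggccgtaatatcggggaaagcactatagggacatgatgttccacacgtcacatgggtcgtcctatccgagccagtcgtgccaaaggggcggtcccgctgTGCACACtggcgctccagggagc
Mt2 held 5 matches to the looser letters, with none overlapping, and Mt1 held 1. The Mt2 matches GGGAGCA, read on the other strand, and TGCTCTC hold a T in place of R and match only the looser letters. At least 1 match occurred in 44.4% of the same windows of all 32851 RefSeq promoters and at least 5 in 0.344%. The letters CANNTG, an E-box of the kind that basic helix-loop-helix factors bind, had no match in the same windows of Kera and Tnmd (66.2% of all promoters held at least 1). These lay at chr10:97606955-97607204 and chrX:133850758-133851007, both on the plus strand. In Gencode M21 Kera starts at 97606879 and Tnmd at 133850980. By that annotation the Kera window lies inside the gene and the Tnmd window runs past its start. A match or its absence describes these windows only.

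Transcription factors of fibroblasts were mostly higher, 11 of 16 compared, with 1 lower (median log2 ratio 1.92). Osr1 and Osr2, zinc finger factors of connective tissue, were at 59.9 against 2.49 CPM and 81.1 against 4.80 CPM. Meox2 was at 112 against 8.93 CPM, Prrx2, a limb mesenchyme homeobox factor, at 135 against 19.5 CPM, Creb5, known from the joint surface, at 125 against 13.2 CPM, Klf4 at 357 against 126 CPM and Ebf2 at 45.8 against 7.35 CPM. Prrx1, Twist1, Tcf4 and Ebf1 were within 2-fold, and Pparg, of the fat lineage, was lower (2.12 against 41.5 CPM). Of 7 osteoblast transcription factors compared, 5 were lower and 0 higher. Among the lower, Runx2 was at 12.0 against 71.1 CPM, Sp7 (osterix) at 5.64 against 102 CPM, Dlx5 at 17.6 against 119 CPM and Dlx6 at 4.23 against 20.1 CPM.

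Among secreted regulators, the sets were mixed. In the insulin-like growth factor axis, Igfbp6 of the rule aside, 1 of 8 genes was higher and 2 lower. The higher one was Igfbp2 (24.7 against 9.03 CPM), of which 1 cell held 68.6% of the UMIs. Without that cell its ratio was 0.864, so no gene of the list outside the rule was then higher. Igfbp7 was the most abundant at 5340 against 3188 CPM, Igfbp4 was lower (923 against 2399 CPM), as was Igfbp3 (59.9 against 243 CPM), and the growth factor Igf1 was at 209 against 360.3 CPM. Of 8 secreted Wnt antagonists, Sfrp2 (33.1 against 6.39 CPM), Dkk2 (38.8 against 4.79 CPM), Dkk3 (81.1 against 31.5 CPM) and Frzb (89.5 against 40.4 CPM) were higher and Wif1 (173 against 664 CPM) and Sfrp5 (3.53 against 52.0 CPM) lower. Frzb had a ratio of 1.98 without its top cell, and its log2 ratio turned to -1.63 in cells with at least 4 markers. It was -0.24, in unthinned counts, for cells that met the rule with markers counted after thinning to 2000 UMIs. Of 6 genes listed as antagonists of BMP and TGF-beta, Fstl1 (1677 against 561 CPM), Gas1 (579 against 190.2 CPM, listed for hedgehog reception as well) and Twsg1 (77.6 against 36.9 CPM) were higher, and Grem1, Chrdl1 and Fst lower. These 3 turned to log2 ratios of 1.25, 2.06 and 1.16 when only the 3223 other cells that passed every exclusion, with under 3 markers, were compared, as did Igfbp3 (1.49), Igfbp4 (0.30) and Sfrp5 (0.77). Sfrp5 had only 5 UMIs in the chosen cells. Cells that failed the Lepr and Adipoq clause alone held Chrdl1 at 332 and Igfbp4 at 6063 CPM. Boc (86.7 against 27.0 CPM) and Cdon (66.3 against 10.9 CPM), co-receptors of hedgehog, were higher with Gas1, and Ptch1, the receptor and target, was lower (6.35 against 52.1 CPM), as was Hhip (15.5 against 35.1 CPM), which turned to 1.41 in that same comparison. Of 9 complement genes compared, Cd55, which protects cells from complement, was higher (221 against 15.3 CPM), and 2 were lower, among them Cd59a (10.6 against 31.6 CPM). Of 7 chemokine genes, 4 were higher, and the 2 lower included Cxcl12, the factor that retains haematopoietic cells in marrow (407 against 6146 CPM). The other, Ccl19 (15.5 against 41.4 CPM), turned to a log2 ratio of 0.48 against only those 3223 cells. Ccl2, a monocyte chemokine, was at 632 against 29.5 CPM in 7.76% of cells with 63.9% of its UMIs in 1 cell.

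Proteases and their inhibitors split as well, with 3 of 14 higher and 5 lower. Among the lower was Timp4 (2.12 against 33.5 CPM), at the level that 3 UMIs are worth in the chosen cells. Against only the 3223 other cells that passed every exclusion, its log2 ratio turned to 0.57 on these few UMIs. Timp2 was at 846 against 279 CPM, in 89.4% against 71.9% of cells, Timp1 at 1194 against 498 CPM (with 26.3% in 1 cell and a ratio of 1.78, under the 2-fold limit, without it) and Mmp3, stromelysin, at 64.2 against 4.91 CPM. Mmp9 (16.9 against 379.7 CPM) and Mmp13 (254 against 1179 CPM), gelatinase B and the collagenase of cartilage resorption, were lower, and 1 cell held 71.7% of the Mmp13 UMIs. Mmp2 and Mmp14, which work together at the cell surface, were within 2-fold. Immediate early genes, which respond within minutes to stimuli such as tissue dissociation, were not high: 0 of 12 were higher and 4 lower, with Fos at 286 against 737 CPM and Egr1 at 58.5 against 143 CPM. Pdgfra, the gene behind the sort, was at 61.3 against 47.3 CPM, in 23.3% against 24.3% of cells. The reporter transcript H2B_GFP was at 79.7 against 99.1 CPM, and had 0 UMIs in both metaphyseal libraries. Pdgfrb, the receptor of mural and metaphyseal stromal cells, was lower (66.3 against 181 CPM).

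Marker genes of other cell types were mostly lower than in all other cells together, which include those cell types. The 8 osteoblast genes summed to 3639 CPM against 37735 in the other cells and 38160 in near-empty barcodes (at most 100 UMIs), with 7 lower. Bglap was the most abundant, in 88.2% of the chosen cells at a per-cell median, with its near-identical copy Bglap2, of 632 CPM, but 67.9% of its UMIs lay in 1 cell. Without the cell with most haemoglobin and the cell with most osteocalcin UMIs, Bglap was at 712 CPM. The 8 chondrocyte genes summed to 1882 against 14751 CPM, of which Comp, shared with tendon, gave 1361, and Col2a1 was at 339 against 10878 CPM and at 6885 in near-empty barcodes. Against only these 3223 cells that passed the exclusions, Acan turned to a log2 ratio of 0.94, Hapln1 to 0.49, Col9a1 to 0.08 and Matn3 to 0.05, and Comp was at 139.9 CPM in those cells. The Lepr stroma genes summed to 469.5 against 8094 CPM, most of it Cxcl12, and the adipocyte genes to 181.9 against 3459, most of it Lpl, with Plin1 at 0. Lpl turned to a log2 ratio of 0.13 in that comparison (116 against 106 CPM), as did Cdh5 (1.59), Rgs5 (2.58), Tyrobp (0.22) and Cd52 (0.41) of the lists that follow. Cdh5, Tyrobp and Cd52 had only 4, 6 and 6 UMIs in the chosen cells. The endothelial genes summed to 10.6 CPM against 130.2 and the haematopoietic genes, led by Fcer1g, to 28.9 against 326, with Laptm5 and Ptprc at 0, and the mural genes to 93.8 against 205, with Myh11 and Higd1b at 0. Several of these genes were in the exclusions, so their low level follows from the rule. The Schwann genes Sox10 and Cdh19 had 0 UMIs and S100b was lower, of 6 skeletal muscle genes listed 2 were measured and reached 4.94 CPM together, and all 4 cycling genes compared were lower, the most abundant being Birc5 (13.4 against 47.0 CPM).

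Erythroid genes summed to 4636 against 3597 CPM, and to 14278 in near-empty barcodes. A single cell carried 485323 CPM of haemoglobin and held 89.4% of the Hbb-bs UMIs, whereas the median cell had 439 CPM. Without it and the cell with most osteocalcin, Hbb-bs was at 276 CPM, lower than in the other cells (1919). Of 5 septoclast genes compared, of the cartilage-resorbing cells the study set out to describe, 3 were lower, among them Fabp5 and Mmp9, at 65.6 and 16.9 against 146 and 379.7 CPM, and Cd55 was higher. A single cell held 43.0% of the Fabp5 UMIs. Of the metaphyseal stroma genes, 4 of 6 were lower and Postn and Cxcl1 higher. Against only the 3223 cells that passed the exclusions, Postn was under a 2-fold difference.

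The 10 smallest ratios among genes of at least 50 CPM in the other cells lay in genes of cell classes that the exclusions remove. Of genes known from blood cells, Elane, Cd74, Wfdc21, Ltf, Mcpt8 and Prss34 had 1, 1, 1, 2, 2 and 4 UMIs in the chosen cells and 131, 90.8, 51.4, 81.6, 65.6 and 122 CPM in the others. Prss34 turned to a log2 ratio of 0.16 against only the 3223 cells that passed the exclusions. Snorc (40.9 against 1798 CPM), Calml3 (0 UMIs against 104.9 CPM) and Tnni2 (3 UMIs against 109 CPM) were at 7361, 439 and 456 CPM in cells that failed the Acan clause alone. Serpina3f (2 UMIs against 68.2 CPM) was at 197 CPM in cells that failed the Lepr and Adipoq clause alone.

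**Figure D3:**
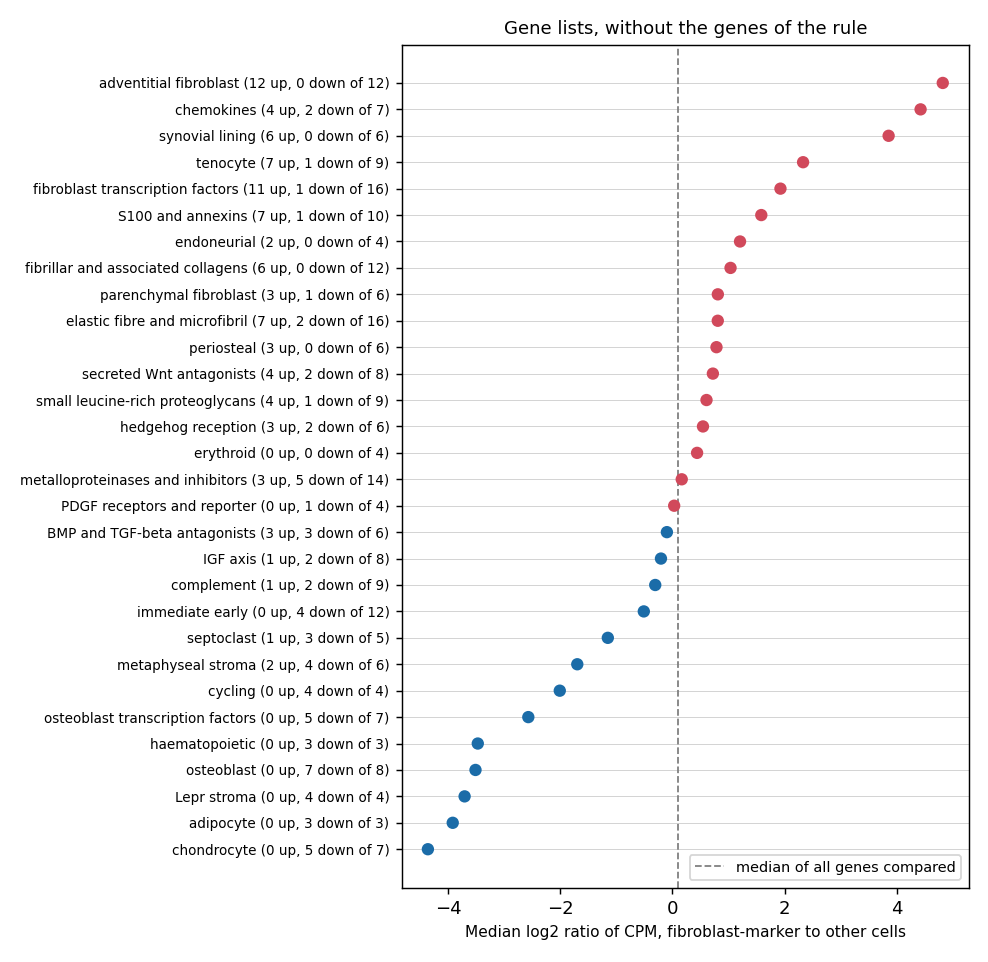
Median log2 ratio of CPM in fibroblast-marker cells to other kept cells of the Pdgfra-GFP library (horizontal axis) for each gene list with at least 3 genes compared, without the genes of the rule. Labels give how many genes were higher (up) and lower (down), and the dashed line is the median of all 6113 genes. The adventitial fibroblast list stood at 4.82 and the chondrocyte list at -4.36.

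The cells were then clustered without the genes of the rule. They fell into 6 groups, described here as groups of cells within 1 library, whose leading genes come from the same counts that formed them. Their number depended on the settings, with 4 groups at resolution 0.3, 9 at 0.8 and 7 from 1000 variable genes. The groups are named by a leading gene, except the Mfap5 group. Its leading genes were Hbb-bs, Bglap and Bglap2, each with most of its UMIs in 1 cell, and Mfap5 had a smaller ratio. The Mfap5 group had 78 cells (31.8%, 26.1 to 38.1%), the Frzb group 61 (24.9%), the Apod group 44 (18.0%), the Kera group 27 (11%), the Hbegf group 24 (9.80%) and the Gatm group 11 (4.49%, 2.26 to 7.89%). Their median depths were 5708, 4704, 4212, 5975, 6480 and 4516 UMIs. A marker is called raised in a group where its level plus 10 CPM was at least 2 times that of the median group and it was in at least 10% of the group's cells, a limit set after the data had been seen.

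The Mfap5 group was nearest to the rule's own markers. It had at least 5 of the 6 markers in 70.5% of its cells, with Dpt at 637 CPM, Clec3b at 1940 and Cd34 at 574. Mfap5 was at 2476 CPM (2341 to 2617) in 92.3% of its cells, Ly6a at 3209, Tnxb at 633, Fbn1 at 1293 in 91.0% against 50.3% of the rest, Anxa3 at 323 and Aspn at 1691. In it, 9 of 12 adventitial fibroblast genes were raised, 7 of 16 elastic fibre genes (8 of 16 in the Apod group) and the periosteal gene Aspn. Its 5 largest ratios were none of these. Saa3 was seen in 1.28% of its cells, Cxcl5 in 2.56%, Il1rl1 in 3.85%, Ccl2 in 21.8% and Ccl7 in 19.2%, with all, 99.8%, 94.7%, 64.0% and 45.4% of their UMIs in 1 cell each. Hbb-bs, Bglap and Bglap2 came next among genes in at least 50% of its cells, with 96.1%, 83.3% and 81.1% of their UMIs in 1 cell each. With these, 4 of 8 osteoblast and 3 of 5 erythroid genes counted as raised here, so the group is given no type.

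The Apod group shared part of this profile. Pi16 was highest here, at 632 CPM in 40.9% of its cells, against 284 in 16.7% of the Mfap5 group. Mfap5 was at 1647 and Cd34 at 678. Of the adventitial list, however, only Mfap5 was raised here, 1 of 12 genes, against 9 of 12 in the Mfap5 group. Apod, a lipid-carrying apolipoprotein, was at 2475 CPM in 81.8% against 29.4% of the rest, and Mgp, the inhibitor of calcification matrix Gla protein, at 16593 in all 44 cells against 2822 in the rest. Cygb, an oxygen-binding globin of fibroblasts, was at 632, Fbln1 at 346 and Entpd2 at 426. By ratio Cxcl10, Gdf10, H19, Abca8a and Mmp13 led. Gdf10 was in 29.5% of cells at 253 CPM, H19 in 18.2% and Abca8a in 22.7%, but 1 cell held all of the Cxcl10 and 91.2% of the Mmp13 UMIs. Of the parenchymal fibroblast genes 4 of 8 were raised (Hsd11b1, Gpx3, Smoc2 and Mfap4), and 6 of 11 complement genes, among them Serping1 and C1s1. The group also had raised Postn, Aspn and Ogn of the periosteal list.

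The Kera group was tenocyte-like by the marker list. In it 9 of 10 tenocyte genes, all but Thbs2, were raised. Kera was at 1871 CPM (1673 to 2086) in 77.8% of its 27 cells against 4.13% of the rest, Tnmd at 3552 in 92.6%, Scx at 357 in 63%, Fmod, fibromodulin, at 4052 and Thbs4 at 4081. It had the highest type I collagen, with Col1a1 at 43839 CPM, and 8 of 12 collagen genes were raised. Clec3b was at 1525 CPM and Igfbp6 at 6194, whereas Pi16 had 0 UMIs and Cd34 was in 14.8% of cells. The other genes with the largest ratios, Ptx4, Epyc, Mcm5 and Insc, were each in 22.2 to 25.9% of its cells. Acan and Comp of the chondrocyte list were raised here as well.

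The Frzb group carried genes of tendon and of cartilage together. It had 3 markers in 56 of 61 cells, with Cd34 in 77.0%, Igfbp6 and S100a4 in 98.4% each and Clec3b in 1.64% of them. Frzb, a secreted Wnt antagonist of joints, was at 375 CPM in 55.7% against 3.26% of the rest. Cox4i2 was at 735 in 75.4%, Nt5e, the surface nucleotidase CD73, at 381 in 72.1%, Fibin at 1427 in 93.4% and Chad, the matrix protein chondroadherin, at 2816 in 70.5%. Myl1, Tesc and Dlk1 also had large ratios, in 32.8%, 21.3% and 23% of its cells. Comp was at 3973 CPM in all 61 cells, Cilp2 at 1672, Thbs4 at 3632, Tnmd at 1470 and Prg4 at 5149. Of the tenocyte list 6 of 10 genes were raised, and of the chondrocyte list 5 of 8 (Acan, Comp, Hapln1, Col9a1 and Sox9), with Acan held to at most 1 UMI a cell by the rule. Angptl7 was at 1762 CPM, in 29.5% of its cells. Since it carried genes of both lists, the group is given no type.

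The Hbegf group was synovial lining-like, with all 7 genes of that list raised. Prg4 was at 17414 CPM (16755 to 18092) in 95.8% of its 24 cells. Hbegf, a membrane-bound ligand of the EGF receptor, was at 3518 in 95.8% against 11.3% of the rest, Htra4 at 1839, Tspan15 at 509 in 79.2%, Cd55 at 721 in 87.5%, and Clic5 at 172 in 45.8% with 0 UMIs in the rest. The largest ratios were of Rab37 (172 CPM in 58.3%), F13a1 (575 in 62.5%), Hbegf, Pla1a (549 in 41.7%) and Clic5. Col22a1, a collagen of tissue junctions placed here on the osteoblast list, was at 608 CPM in 79.2% against 4.07% of the rest, while no other osteoblast gene was raised. Type I collagen was low, with Col1a1 at 2163 CPM, and S100a6 was at 14008. Of the adventitial list 8 of 12 genes were raised in these cells too, among them Dpp4, Sema3c and Tnxb (774).

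The Gatm group was perineurial-like and small, with 11 cells and 49997 UMIs in all, so that 3 UMIs are worth 60.0 CPM. Of 6 perineurial genes, 5 were raised: Slc2a1, the glucose transporter of barrier cells, was at 2340 CPM (1935 to 2805) in 81.8% of cells, Itgb4, a laminin-binding integrin, at 240.0, Cldn1, a tight junction protein, at 240.0, Lypd2 at 180.0 and Kcnj13 at 40.0, which is 2 UMIs and below that floor, so that 4 of the 5 stood above it. Gatm, an enzyme of creatine synthesis, was at 2260 CPM in 90.9%, Wnt10a at 420.0 in 90.9%, Ntng1 at 460.0 in 81.8%, Nkain4 at 380.0 in 63.6% and Igfbp2 at 680.0 in 36.4%, with 70.6% of the Igfbp2 in 1 cell. Each of the 5 was in 0.427% of the other chosen cells. Msln, mesothelin, known from mesothelium, was also among the leading genes, at 280.0 CPM in 54.5% of cells. The group had the highest Igfbp6, at 9661 CPM (8818 to 10562), and Dpt and Ly6a at 0 UMIs. All 11 cells had exactly 3 markers. Immediate early genes summed to 5980 CPM here, with 6 of 12 raised, against 2300 in the Mfap5 group.

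**Figure D4:**
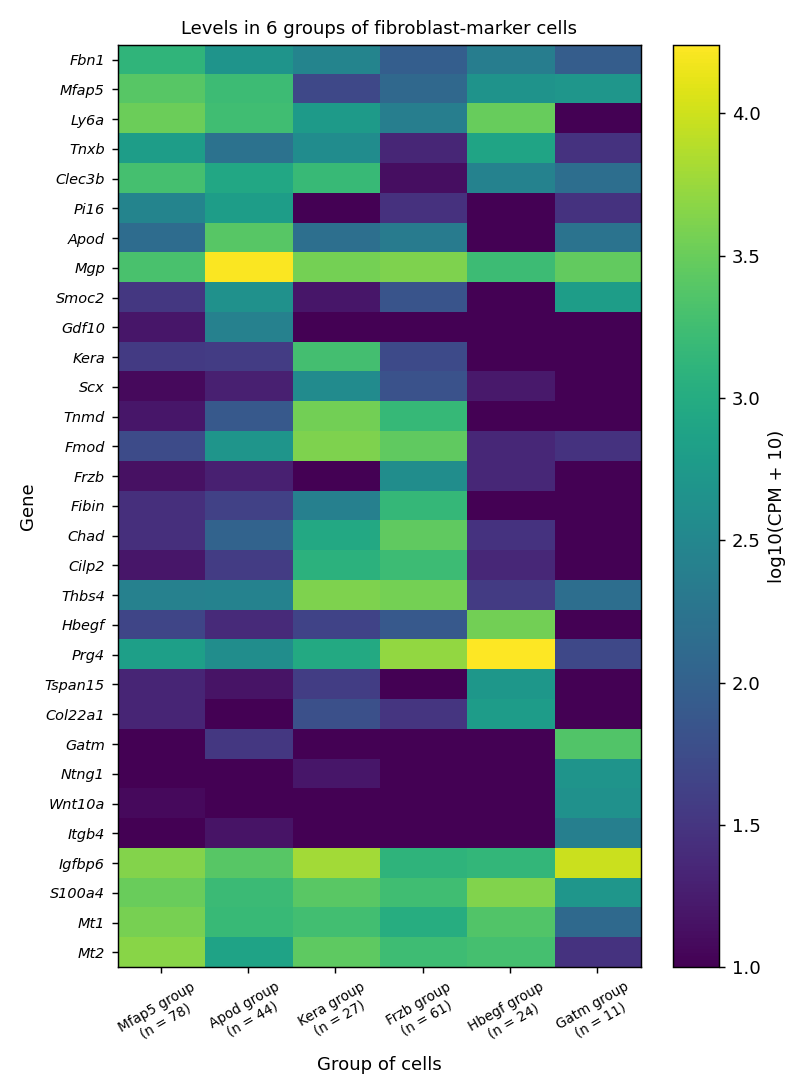
Level of 31 genes (vertical axis) in each of the 6 groups of fibroblast-marker cells (horizontal axis, with the number of cells), as log10(CPM + 10) in colour. Prg4 was highest in the Hbegf group, Kera in the Kera group and Gatm in the Gatm group.

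The groups thus met the rule by different markers. Dpt was in 84.6% of the Mfap5, 83.3% of the Hbegf and 65.9% of the Apod group, but in 44.4% of the Kera, 23% of the Frzb and 0 of 11 cells of the Gatm group. After each cell had been thinned to 2000 UMIs, with 3 of 245 too shallow, the mean number of markers per cell was 4.01 in the Mfap5, 3.63 in the Apod, 2.96 in the Hbegf, 2.85 in the Kera, 2.37 in the Frzb and 1.91 in the Gatm group. Without thinning these means were 4.71, 4.05, 4, 3.31, 3.08 and 3, in the same order. Metallothionein level differed among the groups as well. Mt1 and Mt2 together had a per-cell median of 840 CPM in the Mfap5 group, 4419 in the Kera group and 0 in the Gatm group. The highest cells of the Mfap5 group reached 63211 and 76367 CPM, so its summed 8421 CPM stood far above its median cell.

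**Figure D5:**
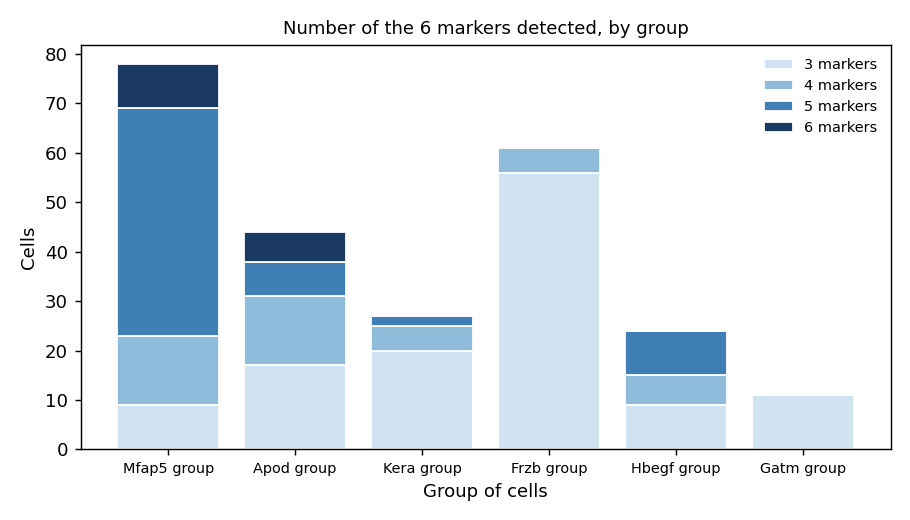
Number of cells (vertical axis) in each group (horizontal axis), split by how many of the 6 markers of the rule were detected (shades). In the Mfap5 group 55 of 78 cells had 5 or 6 markers, and in the Frzb and Gatm groups 0 did.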

How the data were processed

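Single-cell 3′ RNA libraries (10x Chromium) were read from the deposited UMI count matrices, which the authors made with bcl2fastq, fastp 0.20 and STARsolo (STAR 2.7.3a) using the mm10 genome, Gencode M23 genes and an added H2B-GFP sequence. The matrices were deposited unfiltered, so cells were chosen here by genes, mitochondrial and ribosomal shares, and then by the marker rule. Members, gene lists and named genes were chosen with earlier results of these data known. Counts were summed over cells and scaled to CPM, with exact 95% Poisson intervals for levels and exact binomial (Clopper-Pearson) intervals for shares. Both cover counting error only. Genes in more than 10 cells with at least 20 CPM on either side were compared. Named genes were the rule's genes, list members, the 20 largest and 10 smallest ratios among genes of at least 50 CPM, and the 5 largest per group. Genes in at least 50% of the chosen cells or of a group were added after their values were seen. Scrublet, as run by scanpy 1.11.5, marked doublets (Python 3.11.15, scipy 1.17.1, numpy 2.4.6). Groups came from 2000 variable genes without the rule's genes, 20 principal components, 15 neighbours and Leiden resolution 0.5. TMM factors came from edgeR 4.0.16. The call of higher or lower was checked on simulated Poisson sums, which hold no spread between cells. The marker rule and the groups were not checked in that way. Members lay in 1 library, so no test was made. Values of some list genes are not reported here. Alternatives covered the thresholds, doublets, scaling, depth and single cells.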

Additional observations from a re-analysis of the deposited data

Results flagged for a closer look

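Barcodes below the gene minimum were not used above. Of 2397 Pdgfra-GFP barcodes with 500 to 999 genes, 31 met the marker and exclusion clauses, or 1.29% (exact binomial interval 0.880 to 1.83%), beside 2.18% (1.92 to 2.47%) of the kept cells. They stand here because they carry the marker signal outside the cells compared above. Of 663 and 560 metaphyseal barcodes with 500 to 1499 genes, 0 did. The 31 barcodes had a median of 1437 UMIs. Their summed levels against the other barcodes of that range were 1381 against 10.4 CPM for Mfap5, 1626 against 102 for Ly6a, 4365 against 88.5 for Mt2, 13585 against 663 for Col3a1, 757 against 353 for Prg4 and 223 against 49.7 for Tnmd. The genes of the rule chose these barcodes, so the levels are a description.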

How the results depend on the processing

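No paired analysis was possible because the members lay in 1 library and no test was made. For the same reason leaving out either metaphyseal replicate gave no value. With at least 2 markers, 6 and 2 metaphyseal and 436 Pdgfra-GFP cells met the rule, with at least 4 markers 123 Pdgfra-GFP cells did, and with 0 UMIs of the excluded genes (at most 2 of Rgs5) 150. A level of at least 5 CPM gave 1090 genes higher and 1252 lower, and a comparison with only the 3223 other cells that passed every exclusion, with under 3 markers, gave 1068 higher and 416 lower. The 6 groups became 4 at resolution 0.3, 9 at 0.8, 7 from 1000 variable genes, 6 without doublets and 3 with at least 4 markers. Over the settings with all marker numbers, the best overlap (shared over joined cells) was 0.462 to 0.823 for the Mfap5 group, 0.623 to 1 for Frzb, 0.306 to 0.759 for Apod, 0.571 to 0.593 for Kera, 0.875 to 1 for Hbegf and, for Gatm, 0.076 at resolution 0.3 and 1 otherwise. Log2 ratios of called genes that changed sign were, with at least 4 markers, Scx -0.24, Cilp2 -1.45, Slc2a1 -0.82, Col16a1 -0.28, Igfbp2 -2.81, Frzb -1.63 and Angptl7 -0.09. With 0 UMIs of the excluded genes (at most 2 of Rgs5) Cxcl5 was at -3.01. With markers counted after thinning to 2000 UMIs, 173 of 10823 Pdgfra-GFP cells met the rule. In their unthinned counts Igfbp2 was at -1.63, Frzb at -0.24 and Saa3 at -2.96. Without each gene's top cell Igfbp2 was at -0.21 and Saa3 at -1.23. Against those 3223 cells only, Acan was at 0.94, Matn3 0.05, Hapln1 0.49, Col9a1 0.08, Cdh5 1.59, Rgs5 2.58, Tyrobp 0.22, Cd52 0.41, Lpl 0.13, Igfbp3 1.49, Igfbp4 0.30, Sfrp5 0.77, Grem1 1.25, Chrdl1 2.06, Fst 1.16, Ccl19 0.48, Hhip 1.41, Timp4 0.57 and Prss34 0.16. Of these genes, Cdh5, Prss34, Sfrp5, Tyrobp and Cd52 had 4, 4, 5, 6 and 6 UMIs in the chosen cells. Timp4 stood at the level of 3 UMIs. Counting error is large for them. The cause of the changes in sign was not tested. Genes that fell under the 2-fold limit without a change of sign are not listed here. Of all gene log2 ratios recomputed, 3357 stayed within their counting interval, 881 left it, and these 32, of genes called higher or lower, changed sign. Leaving out each gene's top cell, and leaving out the 2 members named next, were chosen after seeing the data. TMM scaling gave 558 genes higher and 673 lower, and leaving out the 2 members with most haemoglobin and most osteocalcin 661 and 610. In the 11-cell group 3 UMIs are worth 60.0 CPM, and genes under 20 CPM on both sides were not compared.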
